A study of Drosophila melanogaster with 12 samples.

Results

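The data compared S2 cells sorted in G2 with S2 cells sorted in G1. S2 is a cultured Drosophila melanogaster line derived from embryos, with features of haemocytes, the blood cells of the fly. The 6 arrays (3 G2 and 3 G1) were those whose titles name S2 and a phase, out of 12 arrays in the series. The other 6 held sorted OreR wing disc cells from wandering larvae of instar 3. The S2 G2 group was the gate at a DNA content of 4C, which also takes in cells in mitosis, and the S2 G1 group was the gate at 2C. Neither group carried a transgene or a drug treatment in the labels, and both came from low-passage cultures kept for fewer than 30 passages. G2 and G1 arrays were paired by the number in their titles, 4, 5 or 6. The labels do not say that the 3 pairs were separate cultures, so the p-values reflect the spread over these arrays alone, which may be technical. Each array received cRNA made from 100 ng of total RNA, so equal RNA was compared and not equal cell numbers.

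Cells that will divide build up cyclin B, spindle and kinetochore proteins and the inhibitor of separase in G2, and the anaphase promoting complex destroys several of these proteins at mitotic exit. Cyclin E, the replicative helicase, the polymerases and the enzymes that make deoxynucleotides serve the start and passage of S phase, and many of their genes are targets of E2F. A cell in G1 prepares for that step, and a cell in G2 has completed it. RNA measured in a sorted population is an average over its cells, and fewer cells of a type cannot be told apart from less RNA per cell.

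Of 18769 probe sets that were not controls, 7679 had a log2 intensity of at least 5 on 3 or more of the 6 S2 arrays and were tested. They covered 6277 genes, each followed through the probe set with the highest mean. Median log2 intensities of the 6 arrays lay between 4.18 and 4.27, and 40.4% to 40.96% of probe sets reached 5. A value under 5 lies near the background of the arrays, and a change that ends there has a size limited by that background. Array deviations from their group mean had correlations of 0.37 to 0.60 between arrays of the same number and of -0.55 to -0.04 between arrays of different numbers. Deviations within a group cancel out, so positive values for same numbers force the others to be negative on average. The negative values are therefore no separate evidence of pairing. The G1 array numbered 6 stood apart from the other G1 arrays, with correlations of 0.985 and 0.986 to them over the tested probe sets, against 0.994 between the G1 arrays numbered 4 and 5. The 3 G2 arrays correlated at 0.990 to 0.994. Results without each pair are given where they differ.

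The sort was visible in the cyclins. CycB, the B-type cyclin that drives entry into mitosis, had log2 intensities of 10.09, 10.52 and 10.57 in G2 and 9.32, 9.70 and 9.15 in G1. Every G2 array was above every G1 array, and the change was 1.001 ± 0.14 (SE) on the log2 scale in limma's paired fit over 3 pairs (adjusted p = 0.00604). CycB3, a second B-type cyclin used in mitosis, had 8.81, 9.01 and 8.70 in G2 and 7.99, 8.27 and 7.95 in G1, a rise of 0.77 ± 0.08 (adjusted p = 0.00306). CycE, the cyclin that starts S phase, went the other way with 7.44, 7.30 and 7.89 in G2 and 8.11, 8.37 and 8.47 in G1. Its G2 arrays were all below its G1 arrays, and the change was -0.77 ± 0.12 (adjusted p = 0.00741). PCNA, the sliding clamp of the replication fork, was abundant in both phases, with 11.73, 12.13 and 12.23 in G2 and 12.58, 12.75 and 12.77 in G1, and fell by 0.67 on the log2 scale (adjusted p = 0.00687). Mcm5, a subunit of the replicative helicase, changed by -0.44 ± 0.14 and did not pass (adjusted p = 0.0783). Of the other checks meant for the sort, CycA, stg and polo were not analysed here. RnrL and Orc1 were also meant as markers of G1 and S phase. RnrL changed by -0.84 ± 0.10 (adjusted p = 0.00367), while Orc1 did not pass and its groups overlapped.

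**Figure D1:**
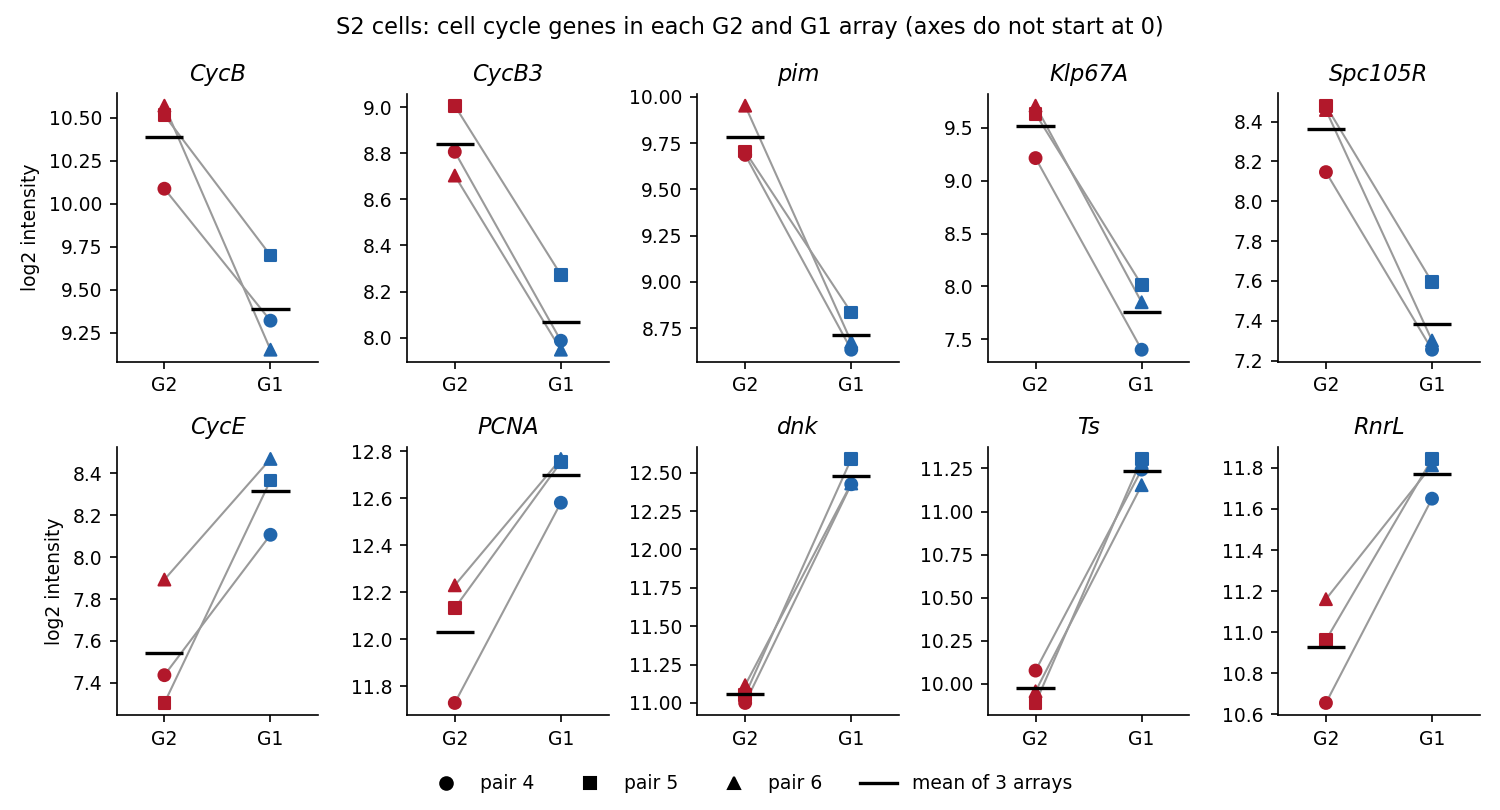
Log2 intensity of 10 cell cycle genes in the 3 G2 arrays (red, left) and the 3 G1 arrays (blue, right) of S2 cells, with same-numbered arrays joined and bars at the group means. The upper row and the lower row run in opposite directions, and in all 10 genes the G2 points lie clear of the G1 points.

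The lineage label held against its markers. Of 12 markers of S2 cells and haemocytes, 11 had a G2 mean of at least 5 and 10 a G1 mean of at least 5, led by the matricellular protein gene SPARC at 12.59 in G2 and 12.73 in G1. Hml, which encodes the haemocyte clotting protein hemolectin, had means of 11.22 in G2 and 11.14 in G1. The receptor gene NimC1, a phagocytosis marker, was below 5 in both phases. The summed intensity of the 12 markers ran from 23170 to 25530 in G2 and from 22214 to 27040 in G1, so the groups overlapped. Apart from the wing disc marker ap, the few markers chosen here for other cell types were at or near background in both phases. None of 3 muscle precursor markers, 4 markers of neurons and glia or 2 of fat body had a mean of 5, and 1 of 3 tracheal markers (verm, at 5.00 in G2 and 5.06 in G1) did. Of 5 wing disc markers, rn was near 5 and ap, a LIM homeobox gene, was well above it, at 10.78 in G2 and 10.44 in G1. The other 3 (vg, nub and en) were below 5. Longer lists, described below, held further markers with means of at least 5 in both phases. They were 7 of 19 for the wing disc, 2 of 7 for neurons and glia and 2 of 6 for muscle precursors. For trachea they were 2 of 8 and for fat body 1 of 4.

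A minority of all genes passed, most of them with modest changes. At an adjusted p under 0.05, 1231 of 7679 probe sets passed (16%), with 700 higher in G2 (9.12%) and 531 lower (6.91%). Counted by gene, 1076 of 6277 passed (17.1%), of which 613 rose (9.77%) and 463 fell (7.38%). All 1076 had the same sign in 3 of 3 pairs. In limma's paired fit 2064 of the 6277 genes had an unadjusted p under 0.05, so genes that did not pass may also differ. The median change of all genes was 0.03 on the log2 scale. The median size of a rise was 0.49 and that of a fall was -0.52. Only 39 genes rose and 23 fell by 2-fold or more. For 15 of the rises and 11 of the falls, the level filter was met only on the 3 arrays of the phase where the gene was high, so a difference was built into their selection. The other rises numbered 598 and the other falls 452. Among the genes that passed, 544 rises and 366 falls had no overlap between the groups, and 166 passed with the groups overlapping. Over all genes tested, 18.4% had every G2 array above every G1 array and 11.5% had every G2 array below.

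The direction of the calls depended on the scaling of the arrays. Rises made up 56.86% of the probe sets that passed as deposited, 42.9% with array medians subtracted and 46.04% after cyclic loess. The list counts below are those on the deposited scale. They stand against the 9.77% of all genes that rose and the 7.38% that fell on that scale. Without pair 4, 548 probe sets passed, with 271 higher and 277 lower. Without the pair as a block, 475 passed, and at the level of genes 418 did, all of them among the 1076.

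**Figure D2:**
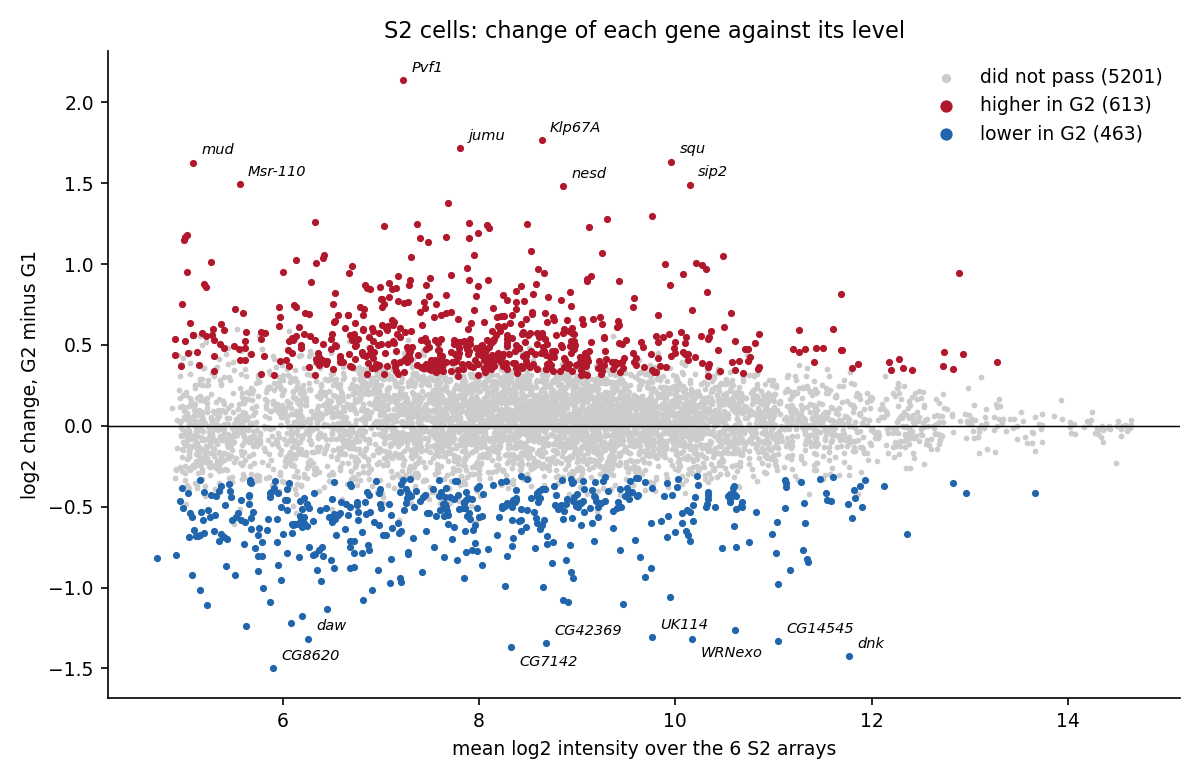
Log2 change of 6277 genes (G2 minus G1, vertical axis) against the mean log2 intensity over the 6 S2 arrays (horizontal axis), with rises in red, falls in blue and genes that did not pass in grey. Most genes lie near 0 at every level, and labels mark the 8 largest rises and 8 largest falls among the genes that passed.

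Genes of the mitotic machinery changed mainly upward. In the list of mitotic entry kinases and phosphatases, 4 of 14 tested members rose and 0 fell, with a median change of 0.09 against 0.03 for all genes. Apart from the B-type cyclins these were gwl, which encodes the Greatwall kinase that keeps the phosphatase PP2A in check during mitosis, and Cks30A, a small subunit that binds Cdk1. Cks30A had 9.86, 10.03 and 10.04 in G2 and 9.02, 9.33 and 9.19 in G1, a rise of 0.79 ± 0.09 (adjusted p = 0.00306), and gwl rose by 0.86 ± 0.17 (adjusted p = 0.0184). The 10 members that did not pass ranged from -0.21 to 0.36. The 4 rises were called in each of the 3 fits that left out a pair. In limma's fit without the pair block 3 rose, and gwl did not pass (adjusted p = 0.0585).

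The list of the anaphase promoting complex, securin, separase and the spindle checkpoint held the highest share of rises among the cell cycle lists. Of 26 tested members 14 rose and 0 fell, with a median of 0.42. The securin pim, which holds separase inactive until anaphase, had 9.69, 9.70 and 9.95 in G2 and 8.63, 8.83 and 8.68 in G1 and rose by 1.07 ± 0.10 (adjusted p = 0.00244). Sse, the separase that cuts cohesin at anaphase, had 7.74, 7.53 and 7.88 in G2 and 6.85, 6.75 and 6.93 in G1, a rise of 0.87 ± 0.09 (adjusted p = 0.00254). Its partner thr, the other part of the fly separase complex, rose by 0.52. Inhibitor and protease thus moved the same way, with no overlap between G2 and G1 arrays in any of the 3 genes. Mps1, the kinase that starts the spindle checkpoint, had 7.14, 7.17 and 7.28 in G2 and 6.26, 6.38 and 5.98 in G1 and rose by 0.99 ± 0.12 (adjusted p = 0.00381). Zwilch and Zw10, which recruit dynein to kinetochores, rose by 0.82 and 0.43. Spindly, the dynein adaptor there, rose by 0.94, and mad2, which forms the inhibitory checkpoint complex, rose by 0.45. On the side of the ligase itself, the activator fzr, the Cdh1 of the fly, rose by 0.78, the scaffold subunit shtd (APC1) by 0.59, ida (APC5) by 0.49, APC4 by 0.47 and the ubiquitin-conjugating enzyme vih by 0.35. In all, 8 members rose without pair 4. With pair 4 left out, the change was 0.46 for Zw10, 0.47 for mad2, 0.57 for shtd, 0.42 for ida, 0.51 for APC4 and 0.38 for vih, and none of these passed. Once pair 5 was dropped, the change was 0.34 for vih, which did not pass. Leaving out pair 6 gave a change of 0.44 for shtd and 0.32 for vih, and neither passed.

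Kinesins and other spindle genes followed, with 15 of 32 tested members higher in G2, 0 lower and a median of 0.32. Klp67A, the kinesin-8 that shortens spindle microtubules at their plus ends, had 9.21, 9.63 and 9.71 in G2 and 7.40, 8.01 and 7.85 in G1, a difference of 3.4-fold. The change was 1.76 ± 0.09 (adjusted p = 0.0011), and its lowest G2 array was more than 1 log2 unit above its highest G1 array. cmet, a CENP-E kinesin that moves chromosomes to the spindle equator, rose by 1.23, and ncd, the kinesin-14 that gathers spindle poles, by 0.83 ± 0.09 (adjusted p = 0.00314). The kinesin-13 Klp10A rose by 0.69 and the kinesin-5 Klp61F, which pushes the poles apart, by 0.56. Augmin, the complex that branches new microtubules from the sides of old ones, had 5 members that passed, dgt3 at 0.93, dgt5 at 0.87 ± 0.10 (adjusted p = 0.00306), dgt6 at 0.71, dgt2 at 0.52 and msd5 at 0.36. Its members wac, msd1 and dgt4, at -0.19, -0.14 and 0.32, did not pass. mud, which links the spindle to the cell cortex, had 5.82, 5.85 and 6.04 in G2 and 4.09, 4.76 and 3.98 in G1. It met the level filter through its G2 arrays alone, so these values are a description, and 14 other members rose. The 17 members that did not pass ranged from -0.19 to 0.32. Refitted without pair 4, the change was 0.49 for dgt2 and 0.38 for msd5, and neither passed. With pair 6 left out, the change was 0.29 for msd5, which did not pass.

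At the kinetochore and among the chromosomal passengers, 7 of 15 rose, 0 fell and the median was 0.34. Spc105R, the scaffold that docks the checkpoint proteins, had 8.15, 8.48 and 8.46 in G2 and 7.25, 7.59 and 7.30 in G1 and rose by 0.98 ± 0.10 (adjusted p = 0.00244). Cenp-C, which joins the kinetochore to centromeric chromatin, had 8.07, 8.50 and 8.49 in G2 and 7.40, 7.69 and 7.27 in G1 and rose by 0.90 ± 0.12 (adjusted p = 0.00541). In both genes the G2 arrays lay above all G1 arrays. In the microtubule-binding Ndc80 complex, Ndc80 rose by 0.80, Nuf2 by 0.68 and Spc25 by 0.44, and Kmn1, of the same network, rose by 0.90 ± 0.09 (adjusted p = 0.00244). Mis12, Nnf1a and Nnf1b of that network, at 0.11, -0.16 and 0.07, did not pass. The remaining riser, Det, the survivin of the passenger complex, changed by 0.42. Once pair 4 was dropped, the change was 0.41 for Spc25 and 0.40 for Det, and neither passed.

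Cytokinesis genes gave 6 rises and 1 fall among 20, with a median of 0.18. nesd, which encodes a partner of centralspindlin at the cleavage furrow, had 9.38, 9.60 and 9.80 in G2 and 7.90, 8.39 and 8.04 in G1 and rose by 1.48 ± 0.12 (adjusted p = 0.00184). pbl, a gene needed for cytokinesis, had 8.78, 9.12 and 9.31 in G2 and 7.84, 8.25 and 7.88 in G1 and rose by 1.08 ± 0.13 (adjusted p = 0.00363). feo, the PRC1 protein that bundles the central spindle, rose by 0.94 ± 0.09 (adjusted p = 0.00244), scra, the anillin of the fly, by 0.90 ± 0.09 (adjusted p = 0.00263) and tum, a centralspindlin subunit, by 0.93. The formin dia, which nucleates ring actin, rose by 0.35. ALiX, an ESCRT-linked gene, was the exception at -0.38 ± 0.09 (adjusted p = 0.0306), and its groups overlapped. Leaving out pair 4 gave a change of 0.33 for dia and -0.36 for ALiX, and neither passed. Refitted without pair 5, the change was -0.35 for ALiX, which did not pass. With pair 6 left out, the change was 0.31 for dia, which did not pass.

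Centrosome genes gave calls in both directions. Of 21 tested members 8 rose and 2 fell, with a median of 0.36, and 1 of the rises, Grip163, met the level filter through its G2 arrays alone. Cep135, a structural part of the centriole, had 6.72, 7.07 and 7.10 in G2 and 5.40, 6.05 and 5.65 in G1 and rose by 1.26 ± 0.11 (adjusted p = 0.00194). Sas-4, which builds centriolar microtubules, rose by 0.73 ± 0.10 (adjusted p = 0.00548), Sas-6, the cartwheel protein, by 0.57 ± 0.09 (adjusted p = 0.0086) and the pericentriolar protein gene Plp by 0.66 ± 0.11 (adjusted p = 0.0098). ana2, which works with Sas-6 in starting a new centriole, had 7.19, 7.36 and 7.69 in G2 and 7.95, 7.80 and 7.99 in G1 and fell by 0.50 on the log2 scale (adjusted p = 0.025). Cartwheel partners therefore lay on opposite sides. Rcd2 changed by -0.56 ± 0.10 (adjusted p = 0.0154). Once pair 4 was dropped, the change was 0.51 for Sas-6, -0.37 for ana2 and -0.45 for Rcd2, and none of these passed. Leaving out pair 6 gave a change of -0.58 for Rcd2, which did not pass. The list had 4 rises without pair 4, 9 without pair 5, 4 without pair 6 and 4 without the pair block.

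**Figure D3:**
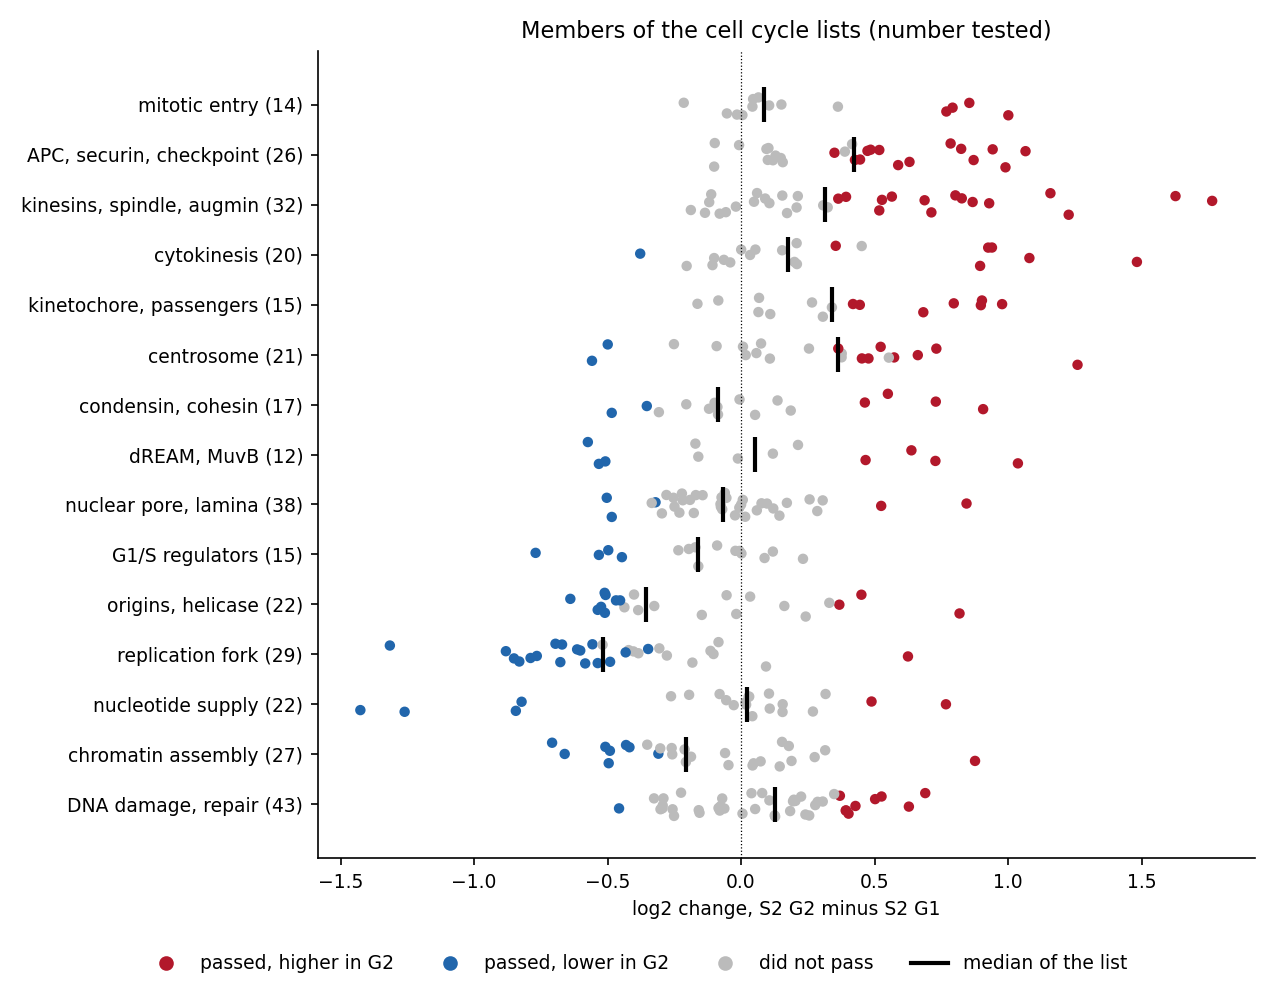
Log2 change (S2 G2 minus S2 G1) of each tested member of 15 cell cycle lists, with rises in red, falls in blue, members that did not pass in grey and a bar at each list's median. The medians of the checkpoint, spindle, kinetochore and centrosome lists lie above 0.3, and those of the origin and fork lists lie at -0.36 and -0.52.

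Chromosome structure genes gave calls in both directions. Of 17 tested, 4 rose and 2 fell, with a median of -0.09. The condensin I subunits barr, Cap-G and Cap-D2, which compact chromosomes in mitosis, rose by 0.91 ± 0.13, 0.73 ± 0.11 and 0.46 ± 0.10 (adjusted p = 0.00665, 0.00696 and 0.0247). barr had 9.39, 9.68 and 9.58 in G2 and 8.68, 8.95 and 8.29 in G1, with no overlap. The condensin genes SMC2, glu and Cap-H2, at 0.19, -0.10 and -0.09, did not pass. mei-S332, the shugoshin that protects centromeric cohesin, rose by 0.55 ± 0.10 (adjusted p = 0.0149). The acetyltransferase eco, which locks cohesin on replicating DNA, changed by -0.48 ± 0.12 and the cohesin ring subunit SMC1 by -0.35 ± 0.08 (adjusted p = 0.0377 and 0.0325). SMC3, Mau2, san, dmt, wapl and pds5, with roles in cohesin or its control, ranged from -0.21 to 0.14 and did not pass. Without the pair block 3 members rose and 0 fell. Refitted without pair 4, the change was 0.49 for Cap-D2, -0.36 for eco and -0.33 for SMC1, and none of these passed. With pair 5 left out, the change was -0.36 for SMC1, which did not pass. Once pair 6 was dropped, the change was 0.36 for Cap-D2, which did not pass.

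Nuclear pore and lamina genes gave 2 rises and 3 falls among 38 and a median of -0.07. Rises made up 5.3% and falls 7.9%, against 9.77% and 7.38% of all genes. The falls depended on the scaling, with 7 of 38 lower when array medians were subtracted, against 10.4% of all genes, and 6 after cyclic loess, against 8.68%. Elys, the nucleoporin that binds chromatin to rebuild pores after mitosis, had 7.14, 7.31 and 7.47 in G2 and 6.27, 6.65 and 6.46 in G1 and rose by 0.84 ± 0.10 (adjusted p = 0.00367). Ote, a LEM-domain protein of the inner nuclear membrane, rose by 0.52 ± 0.10 (adjusted p = 0.015). Nup37 and Nup43, of the outer ring, changed by -0.50 and -0.32, and Rcc1, the exchange factor that makes Ran-GTP on chromatin, by -0.48 (adjusted p = 0.0165, 0.0496 and 0.0228). Leaving out pair 4 gave a change of -0.36 for Nup43 and -0.53 for Rcc1, and neither passed. Refitted without pair 5, the change was -0.32 for Nup43 and -0.37 for Rcc1, and neither passed. With pair 6 left out, the change was -0.28 for Nup43, which did not pass.

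The dREAM complex, in which MuvB proteins bring E2F, Rbf and Myb to promoters and either repress or activate, also changed in both directions. Of 12 tested members, 4 rose and 3 fell (33.3% and 25.0%, against 9.77% and 7.38% of all genes). mip130, a MuvB core subunit, had 6.83, 7.07 and 6.89 in G2 and 5.68, 6.07 and 5.92 in G1 and rose by 1.04 ± 0.09 (adjusted p = 0.00207). Its core partners mip120 and mip40 rose by 0.73 and 0.47, lin-52, at -0.01, did not pass, and l(3)mbt, a chromatin-binding repressor, rose by 0.64 ± 0.10 (adjusted p = 0.00786). Rbf, the retinoblastoma protein that restrains E2F, had 8.13, 8.25 and 8.51 in G2 and 8.76, 8.94 and 8.78 in G1 and fell by 0.53 (adjusted p = 0.0195). CG4236, the histone-binding subunit that this complex shares with the CAF-1 assembly factor, changed by -0.51 ± 0.12, and tomb, a testis-linked relative of mip120, by -0.57 ± 0.10 (adjusted p = 0.0308 and 0.0121). Once pair 4 was dropped, the change was 0.43 for mip40 and -0.49 for Rbf, and neither passed. CG4236 did not pass without pair 4 or without pair 5.

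Falls in G2 were found from G1/S control to the replication fork. Among 15 G1/S regulators 0 rose and 4 fell, with a median of -0.16. After CycE these were Cdk4, the partner of cyclin D, with 8.71, 8.73 and 8.78 in G2 and 9.32, 9.21 and 9.18 in G1 and a change of -0.50 ± 0.09 (adjusted p = 0.0138), Rbf, and l(2)dtl, which targets Cdt1 for destruction, at -0.45 ± 0.10 (adjusted p = 0.0255). Without pair 4, CycE was the only 1 of the 4 that still passed. Leaving out pair 4 gave a change of -0.44 for Cdk4, -0.49 for Rbf and -0.36 for l(2)dtl, and none of these passed. Refitted without pair 6, the change was -0.44 for l(2)dtl, which did not pass.

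Origin recognition, helicase loading and activation genes gave 8 falls and 3 rises among 22, with a median of -0.36. The falls were Orc4 and Orc5 of the origin recognition complex at -0.51 and -0.51, the helicase subunits dpa (Mcm4) and Mcm6 at -0.52 and -0.45, Mcm10 at -0.51, the helicase activator Cdc45 at -0.47, the GINS subunit Psf1 at -0.64 ± 0.10 (adjusted p = 0.00964) and RecQ4 at -0.54. Psf1 had 8.21, 8.27 and 8.42 in G2 and 8.83, 8.72 and 9.27 in G1, with no overlap. Cdc6, which loads the helicase together with Orc, moved against them with 6.68, 6.93 and 7.23 in G2 and 6.22, 5.76 and 6.40 in G1 and a rise of 0.82 ± 0.14 (adjusted p = 0.0108). mus101 (TopBP1), with roles in replication and in the damage checkpoint, rose by 0.45, and rec, a meiotic Mcm relative that met the level filter through its G2 arrays alone, by 0.37. The falls were uneven between pairs. Median changes were -0.56, -0.31 and -0.05 in pairs 4, 5 and 6, and 1 member fell without pair 4, 8 without pair 5 and 11 without pair 6. Without the pair block 2 fell and 0 rose. With pair 4 left out, the change was 0.48 for mus101, 0.36 for rec, -0.41 for Orc4, -0.45 for Orc5, -0.45 for dpa, -0.39 for Mcm6, -0.42 for Mcm10, -0.38 for Cdc45 and -0.51 for RecQ4, and none of these passed. Once pair 5 was dropped, the change was 0.37 for rec, which did not pass. Leaving out pair 6 gave a change of 0.81 for Cdc6 and 0.35 for mus101, and neither passed.

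The replication fork gave 17 falls and 1 rise among 29 tested members and the lowest median of the cell cycle lists, -0.52. WRNexo, an exonuclease related to the Werner syndrome protein, had 9.71, 9.45 and 9.38 in G2 and 11.04, 10.96 and 10.49 in G1 and fell by 1.32 on the log2 scale (adjusted p = 0.00184). PolE4, a subunit of polymerase epsilon, had 9.33, 9.25 and 9.36 in G2 and 10.23, 10.17 and 10.19 in G1 and changed by -0.88 ± 0.09 (adjusted p = 0.00244). In both genes the G2 arrays were the lowest 3 of the 6. Prim1, the primase that starts each fragment, changed by -0.83 ± 0.11 (adjusted p = 0.00597), and RPA2, which coats single-stranded DNA, by -0.79 ± 0.09 (adjusted p = 0.00347). The other falls covered PolD2 at -0.56, PolE2 at -0.58, the flap nuclease Fen1 at -0.43, DNAlig1 at -0.61, Ctf4, which ties helicase to polymerase, at -0.85, timeout at -0.77, the checkpoint mediator Claspin at -0.70 and the clamp unloader elg1 at -0.54. RfC3, of the clamp loader, moved the other way with 9.55, 9.76 and 9.91 in G2 and 8.83, 9.30 and 9.22 in G1 and a rise of 0.63 ± 0.09 (adjusted p = 0.00759), while RfC4 fell by 0.35. Median changes were -0.68, -0.55 and -0.20 in pairs 4, 5 and 6. Falls numbered 10 without pair 4, 19 without pair 5, 20 without pair 6 and 12 without the pair block. Refitted without pair 4, the change was -0.41 for PolE2, -0.43 for Fen1, -0.53 for DNAlig1, -0.44 for Claspin, -0.46 for elg1 and -0.35 for RfC4, and none of these passed. With pair 5 left out, the change was -0.32 for RfC4, which did not pass.

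Nucleotide supply held 4 falls of deoxynucleotide enzymes and 2 rises among 22 tested genes, around a median of 0.02. dnk, the deoxynucleoside kinase that salvages all 4 deoxynucleosides, had 10.9997, 11.05 and 11.12 in G2 and 12.43, 12.59 and 12.43 in G1. The groups lay far apart against the spread within each, and the change was -1.43 ± 0.09 (adjusted p = 0.00117). Ts, thymidylate synthase, had 10.08, 9.89 and 9.96 in G2 and 11.24, 11.31 and 11.15 in G1 and changed by -1.26 ± 0.09 (adjusted p = 0.0015). RnrL, the large subunit of ribonucleotide reductase, had 10.65, 10.96 and 11.16 in G2 and 11.65, 11.84 and 11.81 in G1 and changed by -0.84 ± 0.10 (adjusted p = 0.00367). dUTPase, which keeps uracil out of DNA, changed by -0.82 ± 0.09 (adjusted p = 0.00297). These 4 fell in each fit that left out a pair and without the pair block. The risers were nmdyn-D6 at 0.77 ± 0.10 and nmdyn-D7 at 0.49 ± 0.09, 2 genes of the nucleoside diphosphate kinase family (adjusted p = 0.00541 and 0.0158).

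Histone chaperones and chromatin assembly factors gave 8 falls and 1 rise among 27, with a median of -0.21. That is 29.6% and 3.7%, against 7.38% and 9.77% of all genes. asf1, which hands new histones to the assembly factors, had 9.24, 9.13 and 9.33 in G2 and 10.02, 9.92 and 9.90 in G1 and changed by -0.71 ± 0.09 (adjusted p = 0.00486). Nasp, a histone H3 chaperone, changed by -0.49 ± 0.09, and Lsm10, of the particle that processes histone messages, by -0.66 ± 0.11 (adjusted p = 0.0144 and 0.0121). Slbp, which binds the stem loop of those messages, changed by -0.31, and the CAF-1 subunit CG4236, counted in the dREAM list too, by -0.51. JIL-1, a kinase of histone H3, rose by 0.88 ± 0.12 (adjusted p = 0.00597), with 5.52, 5.63 and 5.75 in G2 and 4.60, 5.06 and 4.61 in G1, so its G1 mean of 4.76 was near background. Falls numbered 2 without pair 4, 4 without pair 5, 8 without pair 6 and 3 without the pair block. Once pair 4 was dropped, the change was -0.47 for Nasp and -0.31 for Slbp, and neither passed. Leaving out pair 5 gave a change of -0.30 for Slbp, which did not pass. Refitted without pair 6, the change was -0.32 for Slbp, which did not pass.

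DNA damage and repair genes gave 9 rises and 1 fall among 43 and a median of 0.13 on the deposited scale. Their shares there were 20.9% and 2.3%, against 9.77% and 7.38% of all genes. With array medians subtracted there were 7 rises and 4 falls, after cyclic loess 6 and 4, and with the filter at 7 there were 8 and 4. lok, the checkpoint kinase Chk2, had 8.67, 8.98 and 9.01 in G2 and 8.29, 8.29 and 8.01 in G1 and rose by 0.69 ± 0.13 (adjusted p = 0.0145). grp, the checkpoint kinase Chk1, rose by 0.40. The nuclease gene mus81 rose by 0.53 ± 0.09 (adjusted p = 0.00992). The polymerase gene PolQ, used in end joining, rose by 0.63 ± 0.10 (adjusted p = 0.00904) with overlapping groups. The translesion genes Rev1 and PolZ1 rose by 0.50 and 0.37 and the end-binding Ku80 by 0.39. tefu, the ATM kinase, was the fall on the deposited scale, with 7.58, 7.77 and 7.58 in G2 and 8.11, 8.28 and 7.91 in G1 and a change of -0.46 ± 0.09 (adjusted p = 0.0179). ATM and its substrate Chk2 thus had opposite signs at the RNA level. Rises numbered 2 without pair 4, 9 without pair 5, 6 without pair 6 and 3 without the pair block. With pair 4 left out, the change was 0.51 for grp, 0.50 for mus81, 0.50 for Rev1, 0.33 for PolZ1, 0.40 for Ku80 and -0.42 for tefu, and none of these passed. Once pair 5 was dropped, the change was 0.35 for PolZ1, which did not pass. Leaving out pair 6 gave a change of 0.28 for grp and 0.41 for Rev1, and neither passed.

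Of 16 apoptosis genes 1 rose and 3 fell. These shares of 6.2% and 18.8% stand against 9.77% and 7.38% of all genes, and rest on few genes. Dark, the Apaf-1 of the fly, and the effector caspase Dcp-1 changed by -0.42 ± 0.10 and -0.48 ± 0.09 (adjusted p = 0.0299 and 0.0152), and Traf4 by -0.43 ± 0.11 (adjusted p = 0.0397). bsk, the Jun kinase, rose by 0.40 ± 0.08 (adjusted p = 0.0227). None of the 3 falls was called without pair 4. Refitted without pair 4, the change was -0.35 for Dark, -0.48 for Dcp-1, -0.30 for Traf4 and 0.39 for bsk, and none of these passed. With pair 6 left out, the change was -0.53 for Traf4, which did not pass.

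The largest changes lay partly outside the cell cycle machinery. Pvf1, a ligand of the PDGF and VEGF type that signals through Pvr, had 8.08, 8.45 and 8.34 in G2 and 5.22, 6.62 and 6.62 in G1. That is a 4.4-fold difference, 2.14 ± 0.21 on the log2 scale (adjusted p = 0.00244), and the largest rise in the fit, with pair differences of 2.86, 1.83 and 1.72. Its receptor Pvr rose by 0.37 ± 0.09 (adjusted p = 0.0308), with 10.57, 11.19 and 11.35 in G2 and 10.13, 10.87 and 11.01 in G1, so the groups overlapped while each pair rose. Pvf2, a second ligand of the receptor, changed by -0.36 ± 0.09 (adjusted p = 0.0391). These were the only 3 of 19 tested genes of PDGF/VEGF, Ras and insulin signalling to pass. Rises made up 10.5% of that list and falls 5.3%, against 9.77% and 7.38% of all genes. Once pair 4 was dropped, the change was 0.33 for Pvr and -0.34 for Pvf2, and neither passed. Leaving out pair 5 gave a change of 0.39 for Pvr and -0.31 for Pvf2, and neither passed.

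jumu, a forkhead transcription factor with roles in haemocytes and heart progenitors, had 8.25, 8.65 and 9.09 in G2 and 6.43, 7.11 and 7.30 in G1 and rose by 1.72 ± 0.10 (adjusted p = 0.0011). The other 6 tested members of its list of forkhead, Myb-class and growth regulators did not pass. squ, a gene of the germline piRNA pathway, had 10.60, 10.87 and 10.87 in G2 and 8.83, 9.38 and 9.22 in G1 and rose by 1.63 ± 0.09 (adjusted p = 0.0011), from a G1 level well above background. sip2, named as a septin interacting protein, had 10.56, 10.98 and 11.14 in G2 and 9.31, 9.68 and 9.21 in G1 and rose by 1.49 ± 0.14 (adjusted p = 0.00244). Msr-110 rose by 1.50 ± 0.12 (adjusted p = 0.00184) with a G1 mean of 4.81, near background. The other rises among the 12 largest that have no named list were CG11125 at 1.38, CG8173 at 1.29 and CG33462 at 1.28.

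On the downward side, CG8620 had 4.95, 5.15 and 5.36 in G2 and 6.26, 6.54 and 7.17 in G1 and changed by -1.50 ± 0.12 (adjusted p = 0.00184), the largest fall that passed. CG14545 had 10.41, 10.35 and 10.39 in G2 and 11.73, 11.65 and 11.76 in G1, a change of -1.33 ± 0.08 (adjusted p = 0.00117). UK114 changed by -1.31 ± 0.09 (adjusted p = 0.00145), CG7142 by -1.37 and CG42369 by -1.35. TpnC4, a troponin C gene of muscle, changed by -1.24 to a G2 mean of 5.00, against 6.24 in G1, and CG3085 and CG18249 by -1.22 and -1.18. daw, an Activin-type ligand of the TGF-beta family, differed in level between pairs. It had 5.01, 5.03 and 6.77 in G2 and 6.40, 6.33 and 8.03 in G1, so that pair 6 stood well above the other pairs in both phases and the groups overlapped. Within pairs the differences were -1.39, -1.31 and -1.26, and the change was -1.32 ± 0.09 (adjusted p = 0.00117), which did not pass without the pair block.

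Genes known by a CG number alone were somewhat more frequent among the calls than among all genes tested. They made up 33.07% of the 6277 genes, 38.17% of the rises and 40.39% of the falls. No test of this difference was made.

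Haemocyte and S2 lineage genes, 28 of which were tested, gave 4 rises and 8 falls with a median of -0.09. That is 14.3% and 28.6%, against 9.77% and 7.38% of all genes. The falls were modest. NimC4, a phagocytic receptor for apoptotic cells, changed by -0.62 ± 0.08 (adjusted p = 0.00591) and Ance, a peptidase, by -0.65 ± 0.09 (adjusted p = 0.00641). He, which encodes the haemocyte surface protein hemese, had 8.33, 8.25 and 8.49 in G2 and 8.88, 8.69 and 9.53 in G1, with all G2 arrays below all G1 arrays and a change of -0.68 ± 0.13. Pxn, Sr-CI and Glt changed by -0.45, -0.46 and -0.48. Pvf1, Pvr, Ppn at 0.57 ± 0.10 (adjusted p = 0.0125) and Ama at 0.36 ± 0.09 (adjusted p = 0.0324) rose. Without the pair block 0 of the 8 falls passed, and 3, 6 and 9 members fell without pairs 4, 5 and 6. Refitted without pair 4, the change was -0.42 for Pxn, -0.39 for Sr-CI, -0.40 for Glt, 0.47 for Ppn and 0.35 for Ama, and none of these passed. With pair 5 left out, the change was -0.39 for Glt and 0.33 for Ama, and neither passed. The G1 array numbered 6 was the highest of the 6 for He.

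Among 24 antimicrobial and immune pathway genes, 0 rose and 2 fell (8.3%), close to the 7.38% of all genes that fell. PGRP-LB, an amidase that degrades peptidoglycan, had 9.31, 9.02 and 8.83 in G2 and 10.01, 9.71 and 9.74 in G1 and changed by -0.77 ± 0.09 (adjusted p = 0.0038). CecB, a cecropin, had 11.84, 10.56 and 9.77 in G2 and 12.52, 11.35 and 10.98 in G1. Its level differed between pairs by more than between phases, and it fell in each pair, with a change of -0.89 ± 0.12 (adjusted p = 0.00541). CecB did not pass without the pair block.

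Metabolic and stress lists were small. Of the lists in this paragraph, only glycolysis and ecdysone gave calls in both directions. Glut1, the glucose transporter, had 6.68, 6.67 and 6.83 in G2 and 7.55, 7.62 and 7.83 in G1, with a change of -0.94 ± 0.09 (adjusted p = 0.00244), and the aldolase Ald1 changed by -0.43 ± 0.10 (adjusted p = 0.0318). Pfk, phosphofructokinase, rose by 0.45 ± 0.09 (adjusted p = 0.0195), so 1 rose and 2 fell among 12 glycolytic genes, with a share of falls of 16.7% against 7.38% of all genes. Of 20 heat shock and folding genes, Hsp27 and Hsp68 rose, by 0.52 ± 0.12 and 0.42 ± 0.11 (adjusted p = 0.0304 and 0.0474). GstD1 was the 1 member of 18 unfolded protein and oxidative stress genes to pass, at 0.35 ± 0.09 (adjusted p = 0.0433). Its call was lost with array medians subtracted. In the ecdysone list 1 of 9 rose and 3 fell, with a share of falls of 33.3%. MsrA rose by 0.81 ± 0.15 (adjusted p = 0.0148) and br, ftz-f1 and ImpE3 changed by -0.44, -0.52 and -0.46 and passed, while the 2 probe sets of ftz-f1 differed in sign, at -0.52 and 0.39. betaTub97EF, a beta tubulin, fell by 0.81 (adjusted p = 0.00304), the only 1 of 4 tubulin and actin genes to pass. Once pair 4 was dropped, the change was 0.38 for Pfk, 0.35 for Hsp27, 0.29 for GstD1, -0.45 for br, -0.42 for ftz-f1 and -0.40 for ImpE3, and none of these passed. Leaving out pair 5 gave a change of -0.40 for Ald1, 0.38 for Hsp68, 0.35 for GstD1 and -0.37 for br, and none of these passed. Refitted without pair 6, the change was -0.36 for Ald1, 0.61 for Hsp27 and 0.32 for Hsp68, and none of these passed.

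The machinery of protein and energy supply gave few calls. Of 36 cytosolic ribosomal protein genes 0 rose and 1 fell, the paralogue RpS19b at -0.50. Of 71 mitochondrial ribosomal protein genes 2 rose (mRpS30 at 0.58 ± 0.09 and mRpS34 at 0.34 ± 0.09) and 1 fell (mRpL33 at -0.33 ± 0.09). Of 59 oxidative phosphorylation genes ATPsynbeta alone passed, at 0.39, and of 28 proteasome genes the paralogue Rpt3R alone, at 0.38. Ribosome biogenesis gave 2 rises among 35, Tif-IA, which starts transcription by RNA polymerase I, at 0.47 and Mybbp1A at 0.45. None of 27 translation factors, 26 Mediator subunits or 17 genes of JAK/STAT, Notch, Wnt and Hippo signalling passed limma's paired fit, while 2, 3 and 3 of them had an unadjusted p under 0.05. In the fit of all 12 arrays with 1 shared spread, 2 translation factors rose, 2 Mediator subunits rose, and 1 signalling gene rose and 1 fell. Among 11 Sm and LSm genes SNRPG passed at -0.36, among 18 lipid genes Lip4 at -0.53 and among 16 vacuolar ATPase genes VhaAC39-2 at -0.67, all lower in G2. Atg10 rose by 0.50 among 22 autophagy genes and Exo70 by 0.33 among 20 vesicle genes. The median changes of these lists, from -0.13 to 0.12, lay around the median of 0.03 for all genes. With pair 4 left out, the change was 0.29 for mRpS34, -0.34 for mRpL33, 0.44 for ATPsynbeta, 0.28 for Rpt3R, 0.46 for Tif-IA, 0.40 for Mybbp1A, -0.37 for SNRPG, -0.55 for VhaAC39-2, 0.48 for Atg10 and 0.33 for Exo70, and none of these passed. Once pair 5 was dropped, the change was 0.31 for mRpS34, -0.35 for mRpL33, 0.37 for ATPsynbeta, -0.37 for SNRPG and 0.38 for Exo70, and none of these passed. Leaving out pair 6 gave a change of -0.35 for RpS19b, -0.30 for mRpL33, 0.36 for ATPsynbeta, 0.40 for Rpt3R, 0.38 for Mybbp1A, -0.33 for SNRPG, -0.36 for Lip4, -0.60 for VhaAC39-2 and 0.30 for Exo70, and none of these passed.

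Few lineage genes of other tissues passed the level filter. Of 7 wing disc markers ap rose by 0.34 and dpp fell by 0.52, both with overlapping groups. The glial genes moody and nrv2, the only 2 tested of the list of neuron and glia genes, rose by 0.72 ± 0.12 and 0.50 ± 0.13 (adjusted p = 0.0121 and 0.0423), while the defining markers elav and repo had means under 5 in both phases. The 2 muscle precursor genes, 2 tracheal genes and 1 fat body gene tested did not pass, and 0, 1 and 1 of them had an unadjusted p under 0.05. Refitted without pair 4, the change was 0.33 for ap and 0.47 for nrv2, and neither passed. With pair 6 left out, the change was 0.29 for ap, -0.47 for dpp and 0.36 for nrv2, and none of these passed.

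**Figure D4:**
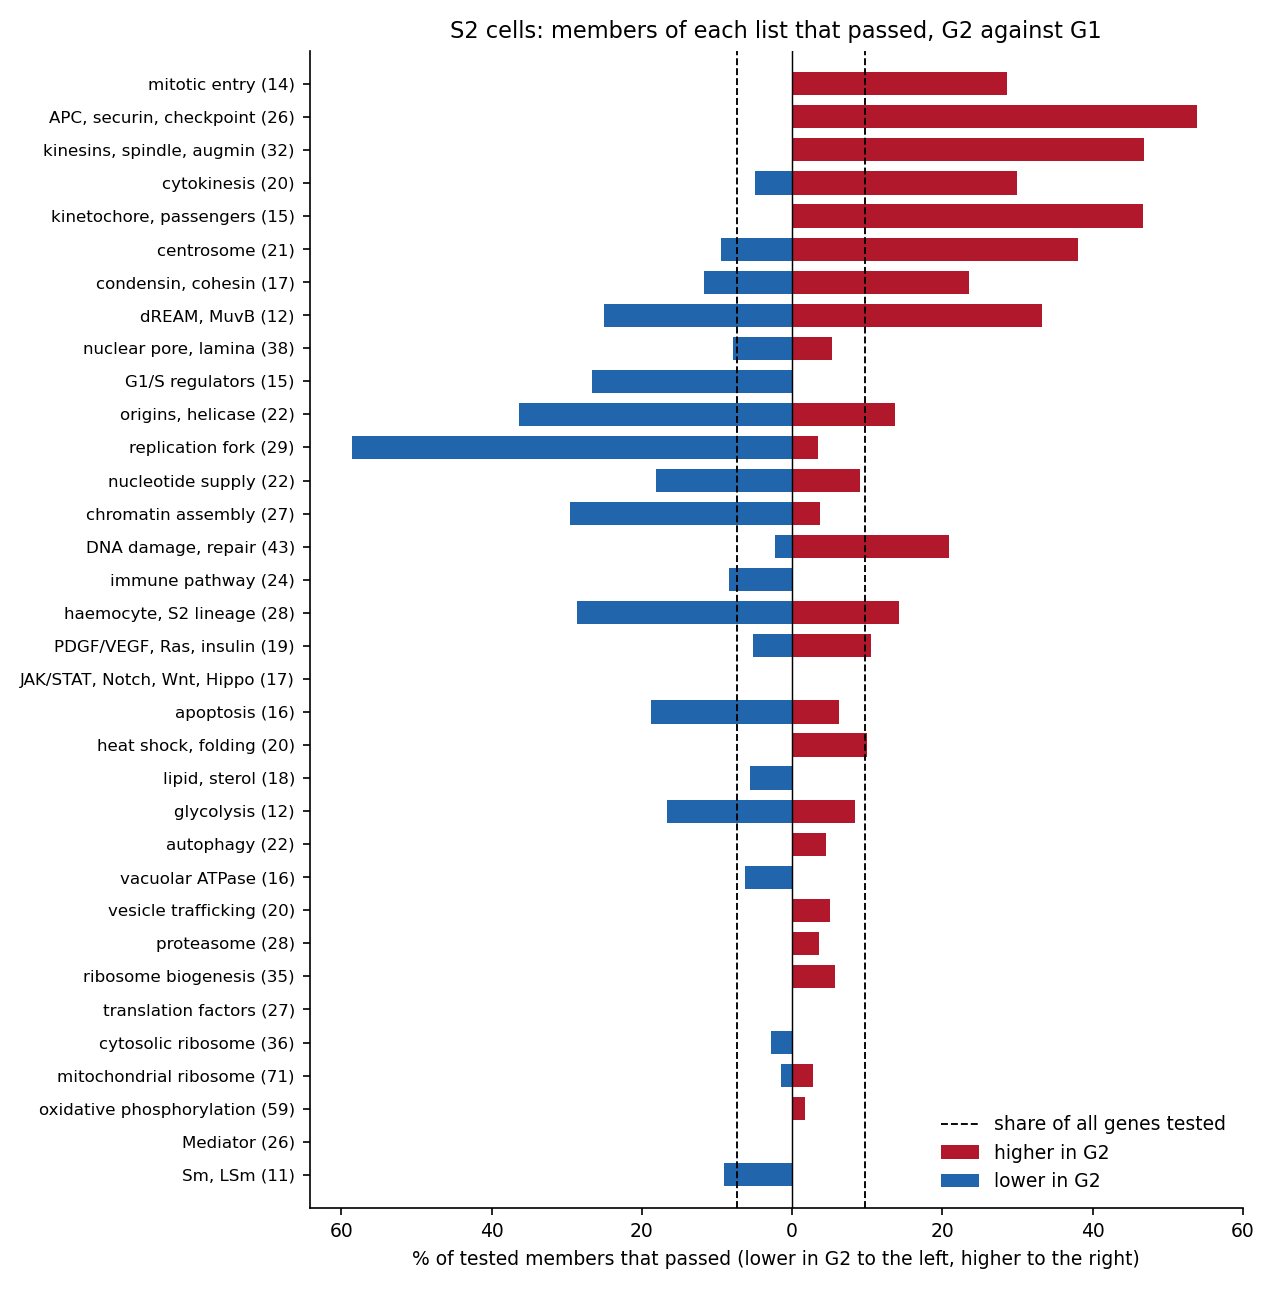
Percent of tested members that passed in each of 34 gene lists, higher in G2 to the right and lower in G2 to the left, with dashed lines at 9.77% and 7.38%, the shares of all genes. Most of the bars drawn that reach past the dashed lines belong to the cell cycle lists at the top. Not all lists were drawn, and some left out also lie past a line. Examples are the ecdysone list (33.3% lower) and the glutathione S-transferase and cytochrome P450 list (22.6% lower). Haemocyte genes also lie past both lines, and apoptosis and glycolysis genes lie past the lower line. Immune pathway genes (2 of 24 lower) and Sm and LSm genes (1 of 11 lower) lie just past the lower line. Heat shock genes (2 of 20 higher) and PDGF/VEGF genes (2 of 19 higher) lie just past the upper line. Bars just past a line rest on 1 or 2 genes, and their difference from all genes was not tested. The bars of the ribosome, respiration and trafficking lists stay short of the lines.

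Where S2 cells differ from the wing disc was tested as the S2 change minus the disc change. Of 7679 probe sets 786 passed (10.2%), with the S2 change above the disc change in 443 (5.77%) and below it in 343 (4.47%). Counted by gene 690 of 6277 passed (11%), 393 above (6.26%) and 297 below (4.73%). Leaving out S2 pair 4 lowered the 786 to 360, S2 pair 5 to 503, disc pair 2 to 434 and disc pair 4 to 402.

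The fork and origin lists held more differences from the disc than any other list tested. The S2 change lay above the disc change in 22 of 29 fork genes and 18 of 22 origin and helicase genes, with 0 below. The median change at the fork was -0.52 in S2 and -1.34 in the disc, and for origins and helicase -0.36 in S2 and -1.36 in the disc. Orc1, the largest origin recognition subunit, had 6.59, 6.64 and 7.04 in G2 and 6.87, 6.90 and 6.95 in G1 in S2, a change of -0.15 that did not pass, against -2.30 in the disc, a difference of 2.153 ± 0.13 (adjusted p = 0.000395). Orc2 changed by -0.05 in S2, which did not pass, and -1.61 in the disc, a difference of 1.56 ± 0.11 (adjusted p = 0.00071). Cdc6 rose by 0.82 in S2 and changed by -1.01 in the disc, a difference of 1.83 ± 0.21 (adjusted p = 0.00278). The nucleotide enzyme dnk was lower in G2 in both, with changes of -1.43 in S2 and -2.54 in the disc, a difference of 1.12 ± 0.11 (adjusted p = 0.00164).

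In the mitotic lists the S2 change was above the disc change in 6 of 15 kinetochore genes, 5 of 26 checkpoint and ligase genes and 5 of 32 spindle genes, with 0 below. Klp67A rose by 1.76 in S2 and 1.17 in the disc, a difference of 0.59 ± 0.13 (adjusted p = 0.0264), which did not pass without S2 pair 4 (0.57), S2 pair 6 (0.54), disc pair 3 (0.62) or disc pair 4 (0.49). Outside the cycle, jumu rose by 1.72 in S2 and changed by -0.19 in the disc, a difference of 1.90 ± 0.11 (adjusted p = 0.000395). The differences for Pvf1, squ and mud, at 1.11 ± 0.34, 0.52 ± 0.16 and 0.95 ± 0.27, did not pass (adjusted p = 0.0851, 0.0793 and 0.0653), although squ did without disc pair 3 (0.66) and mud without S2 pair 5 (1.21). daw fell by 1.32 in S2 and changed by 1.20 in the disc, and Glut1 fell by 0.94 in S2 and changed by 0.57 in the disc. Their differences were -2.52 ± 0.25 and -1.51 ± 0.23 (adjusted p = 0.00167 and 0.00722). Without the pair blocks the differences for Klp67A and daw did not pass (adjusted p = 0.237 and 0.0976).

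**Figure D5:**
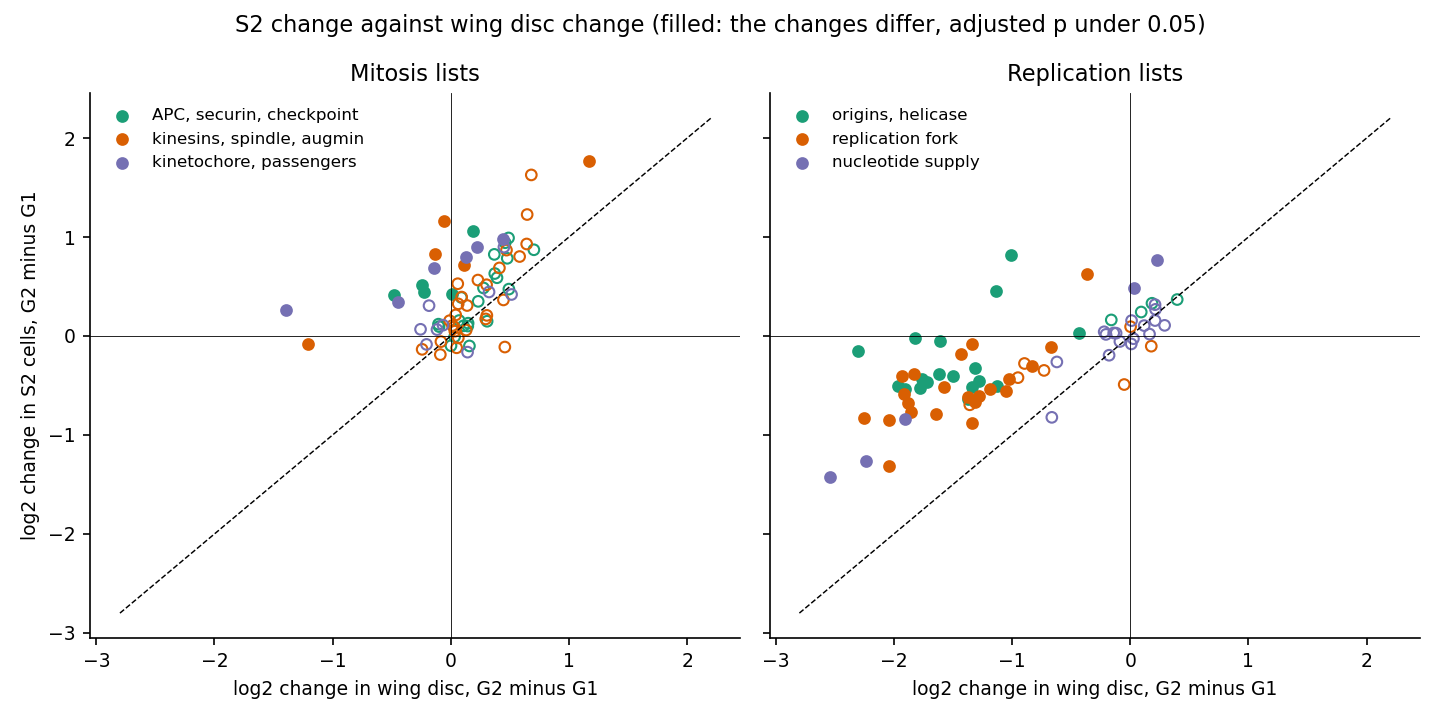
Log2 change in S2 cells (vertical axis, G2 minus G1) against the log2 change in wing disc cells (horizontal axis, G2 minus G1) for members of 3 mitosis lists (left) and 3 replication lists (right), filled where the changes differ at an adjusted p under 0.05. Most fork, origin and helicase genes lie above the dashed line of equal change, with 22 of 29 fork genes and 18 of 22 origin and helicase genes filled. Of the nucleotide supply genes 5 of 22 are filled, and their medians were 0.02 in S2 and -0.04 in the disc.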

How the data were processed

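RNA of sorted S2 cells was hybridised to 6 Affymetrix arrays. Each deposited value is the linear intensity of a probe set, which the authors obtained with RMA under R 2.15.2, per the submitters' processing notes. How RMA handled background and normalization is not given in the sources used here. Here the log2 of each intensity was taken, and 183 control probe sets were left out. Probe sets that reached a log2 of 5 on 3 or more of the 6 arrays were tested. Among the 7679 kept, 6658 had 1 gene in the platform annotation, 203 had several and 818 had none listed. Of 13646 probe sets on the array with 1 gene, 13543 carried an identifier found in RefSeq's gene table, which altered 0 symbols.

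A linear model with phase and pair number was fitted with limma 3.58.1 (R 4.3.3) through lmFit and eBayes. It left 2 residual degrees of freedom, to which eBayes added 5.12. The two-sided p-values of the 7679 probe sets received the Benjamini-Hochberg adjustment. An adjusted p under 0.05 passed, and ± gives the SE of the fit over 3 pairs. The pair number was kept as a block because deviations from the group mean correlated above 0.1 in each same-numbered pair of arrays. The change in S2 minus the change in the disc came from a fit of all 12 arrays with pair number within cell type as a block. On data simulated for the S2 comparison of G2 with G1, with 50 changes of each size, its paired fit recovered 16 changes of 0.5, 38 of 1, 48 of 1.5 and 47 of 2 on the log2 scale, with 4 false calls. Together these changes were a smaller share of the 7679 probe sets than the 16% that passed in the data. Noise was drawn as normal with the fitted spread of each probe set. Recovery in the data themselves may therefore differ. Python 3.11.15 with matplotlib 3.10.9, pandas 2.3.3 and numpy 2.4.6 served for tables and figures.

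The comparison and the gene lists were chosen with earlier results of these data known. Genes were named by a rule: the 12 largest rises and falls, the 4 members of each list with the smallest p among those that passed, members that passed against their list's majority, the sort checks, and 5 rises and 5 falls for the difference from the disc. Further members named as examples, and Orc1, Orc2, Cdc6, daw and Glut1 in the comparison with the disc, were chosen after their values were seen. The glutathione S-transferase and cytochrome P450 list was added after seeing the data. Alternatives were a fit without the block, a fit of 12 arrays with a shared spread, no filter, a filter at 7, array medians subtracted, cyclic loess, eBayes with trend and robust settings, and leaving out each pair. No sequences or coordinates were used.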

Additional observations from a re-analysis of the deposited data

Results flagged for a closer look

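The results below are those where the phase change in S2 differed from the phase change in the wing disc by limma's test of the difference itself, in 3 pairs of arrays per cell type. It held for 786 probe sets. On the log2 scale, the S2 change minus the disc change was 0.59 for Klp67A, 1.90 for jumu and 1.12 for dnk. CG14545 had a difference of 0.66, with falls in both cell types. CG8620, CG7142 and CG42369 had the lower change in S2, with differences of -0.99, -1.06 and -1.12. The origin genes Orc1, Orc2 and Cdc6 had differences of 2.153, 1.56 and 1.83. daw and Glut1 had differences of -2.52 and -1.51, with a fall in S2 and a positive change in the disc. The calls for Klp67A, CG8620 and CG14545 did not hold without 1 or more of the 6 pairs, with differences of 0.49 to 0.62 for Klp67A, -0.93 to -0.89 for CG8620 and 0.53 to 0.68 for CG14545 where they were lost. Without the pair blocks the calls for Klp67A, CG8620, CG14545, CG7142, CG42369 and daw were lost (adjusted p = 0.237, 0.146, 0.16, 0.0688, 0.0865 and 0.0976). Groups of 3 arrays are too small for a test of single outlying arrays.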

How the results depend on the processing

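The count of probe sets that passed depended most on the pairing. Without the pair as a block, 475 passed (281 higher and 194 lower in G2) in place of 1231, and 317 (216 with the higher change in S2 and 101 with the lower) in place of 786 for the difference from the disc. Leaving out a pair gave 548 to 1270 passing, 271 to 770 higher and 277 to 515 lower in S2, with the lowest total without pair 4. For the difference from the disc it gave 360 to 870 passing, 203 to 494 with the higher change in S2 and 157 to 376 with the lower. Fits without a pair have 1 residual degree of freedom and prior degrees of freedom of 15.38, 43 and 3.12, so their counts are unstable. The other settings gave 905 (no filter) to 1651 (12 arrays with a shared spread) passing. Of 129 named genes that passed, 78 still passed without the block, 126 with 12 arrays, 103 with no filter, 122 with array medians subtracted, 123 after cyclic loess, 128 with trend and robust eBayes, and 83, 112 and 108 without pairs 4, 5 and 6. All 105 of them that met the filter at 7 passed there, and 0 turned in sign under any of these settings. The named genes that lost their call with array medians subtracted were Ama, Exo70, GstD1, Hsp68, Rpt3R, ap and mRpS34. Those that lost it after cyclic loess were Exo70, Hsp68, Rpt3R, ap, mRpS34 and nrv2. The cause of these changes was not tested. The number of arrays, the background near a log2 value of 5 and equal RNA input limit all sizes given.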

Other observations

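A list of glutathione S-transferase and cytochrome P450 genes, enzymes of detoxification, was added after its members were seen among the falls, so its counts are a description. Of 53 tested members 12 fell and 4 rose in S2 G2, with a median of -0.10 against 0.03 for all genes. Members were taken by gene symbol, so the 53 also held Cyp40, which is not a cytochrome P450 (change 0.11, did not pass). GstS1 had 6.78, 6.54 and 6.51 in G2 and 7.69, 7.59 and 7.47 in G1, with all G2 arrays below all G1 arrays and a change of -0.98 ± 0.09 (adjusted p = 0.00223). Cyp6d5 had 4.67, 4.63 and 4.73 in G2 and 5.63, 6.01 and 5.72 in G1 and met the level filter through its G1 arrays alone, as did GstE5, so both are descriptions, and 10 other members fell. GstD5 changed by -0.97 ± 0.10 (adjusted p = 0.00263) with overlapping groups, and Cyp12c1 by -0.68 ± 0.10 (adjusted p = 0.00798). GstT3 rose by 0.60 ± 0.12 (adjusted p = 0.0164). Without the pair block 7 fell and 0 rose, and falls numbered 8, 11 and 10 and rises 0, 2 and 3 without pairs 4, 5 and 6. The S2 change was below the disc change in 12 of the 53 and above it in 1, against 4.73% and 6.26% of all genes. The S2 falls that led to the list also enter this difference, so these counts are a description too.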
